A study of Homo sapiens with 16 samples.

Results

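The genes described are 10 that drive or gate the passage of a cell through G1: the D-type cyclins CCND1, CCND2 and CCND3, their kinases CDK4 and CDK6, the E-type cyclins CCNE1 and CCNE2, their kinase CDK2, the retinoblastoma gene RB1 and the phosphatase gene CDC25A. They were taken by name and not by their values, and are 10 of the 56865 genes with a matched transcript. All 10 passed the filter on low counts, which 15687 genes passed in all. The libraries come from poly(A) RNA of NCI-H1299, an established human non-small cell lung carcinoma line with the genotype p53-null, and of its derivative with stable expression of p53 Y220C, a destabilised mutant form of p53. Cells of either genotype were kept for 24 h in 10 µM MS78 or in the vehicle DMSO. The 4 groups of 4 libraries are called Null DMSO and Null MS78 for the p53-null cells, and Y220C DMSO and Y220C MS78 for the p53-Y220C cells. MS78 is known as a bifunctional compound designed to recruit p300 and CBP, which are acetyltransferases, to the Y220C mutant. The p53-Y220C line alone was kept in medium with G418, so comparisons of the lines cannot tell apart the antibiotic, the transgene and other differences of the derivative. Neither the transgene's promoter nor the clonality of the derivative is given in the sources used here. Separate cultures are not named in the labels, and the spread between samples on which p-values rest may be technical.

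In early G1 the D-type cyclins bind and activate CDK4 and CDK6, and these kinases phosphorylate the RB1 protein. Unphosphorylated RB1 holds the E2F transcription factors in check; once it is phosphorylated, E2F switches on the genes of S-phase entry, among them the E-type cyclins. Cyclin E with CDK2 then completes the phosphorylation of RB1, CDC25A removes the inhibitory phosphates from CDK2, and p53 restrains the whole step through the CDK inhibitor gene CDKN1A. Lung carcinomas often lose a part of this circuit. Here only mRNA was measured; fewer cells in a phase and less mRNA per cell cannot be told apart in bulk RNA, and phosphorylation was not measured.

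Libraries held 20.3 M to 27.7 M estimated reads. The 4 carcinoma line markers (KRT8, KRT18, VIM and EPCAM) summed to 4139 to 4664 CPM (counts per 1 M reads, TMM-scaled) in the Y220C MS78 libraries and to 5625 to 6127 CPM in the other 12, and EPCAM alone was low, at 3 to 35 reads. Most of the sum was VIM. The keratins were higher in the p53-Y220C line: KRT8 and KRT18 had means of 330.5 and 491.3 CPM in Y220C DMSO and 243.3 and 376.7 CPM in Y220C MS78. Their means were 180.2 and 304.8 CPM in Null DMSO and 173.0 and 288.5 CPM in Null MS78. With MS78, KRT8, KRT18 and VIM fell in p53-Y220C cells (log2 fold changes -0.44, -0.38 and -0.41, adjusted p = 8.28e-07, 9.51e-09 and 8.19e-09) and did not pass in p53-null cells (adjusted p = 0.473, 0.0945 and 0.707). The part of these shifts in the results below was not tested. Reads of PTPRC, the leukocyte antigen CD45, numbered 55 to 99 in 8 libraries and 0 or 1 in the other 8. The 8 with such reads were, in both lines, DMSO replicate 1 and MS78 replicates 2, 3 and 4. The 12 leukocyte markers examined summed to 48.3 to 104.5 CPM in the former and to 2.21 to 11.9 CPM in the latter, where CD2, CD3E and CD48 were at 0 in all 8 libraries. These reads are thus unevenly spread over the treatments, and values from each set of 8 libraries alone are given below as alternatives.

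Promoter sequences (250 bases before to 50 after the start, RefSeq on GRCh38.p14) were at hand for 6 of the 10 genes: CCND3, CDK4, CDK6, CCNE1, RB1 and CDC25A. The entry for RB1 begins at base 48476200 of chromosome 13, inside the gene and downstream of its first base at 48303726, so the promoter of the main RB1 transcript was not searched. Each was searched on both strands for the E2F letters TTTCCCGC, TTTGGCGC, TTTCGCGC and TTTGCCGC, which can overlap each other across strands (a promoter was counted once), and for the CHR letters TTTGAA. E2F letters were found in 3.31% of all 35116 promoters of that length and, among the 6 genes, in CDC25A alone, while the CHR letters were found in 15.2% of all promoters and in none of the 6. The 250 bases before the start are printed for CDC25A, which holds the match and whose mRNA fell in both lines; for CDK4, which fell in both lines without such a match; and for CCND3, at the start nearest its main transcript, as a gene that rose with MS78 in p53-Y220C cells. Capitals mark the E2F letters, whose first base lies 44 bases before the start. A match or its absence in this window is a description of letters and shows nothing about binding.
CDC25A (chr3:48188418-48188667, minus strand): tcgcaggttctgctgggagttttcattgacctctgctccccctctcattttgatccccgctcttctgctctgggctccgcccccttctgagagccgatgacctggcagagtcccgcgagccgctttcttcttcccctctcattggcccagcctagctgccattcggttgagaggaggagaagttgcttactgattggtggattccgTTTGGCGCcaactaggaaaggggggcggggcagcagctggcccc
CDK4 (chr12:57752311-57752560, minus strand): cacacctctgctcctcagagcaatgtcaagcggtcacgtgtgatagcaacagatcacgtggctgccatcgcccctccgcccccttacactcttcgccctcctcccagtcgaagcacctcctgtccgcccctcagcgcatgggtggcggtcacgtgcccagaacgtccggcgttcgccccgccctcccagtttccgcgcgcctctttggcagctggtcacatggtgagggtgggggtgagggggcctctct
CCND3 (chr6:41941809-41942058, minus strand): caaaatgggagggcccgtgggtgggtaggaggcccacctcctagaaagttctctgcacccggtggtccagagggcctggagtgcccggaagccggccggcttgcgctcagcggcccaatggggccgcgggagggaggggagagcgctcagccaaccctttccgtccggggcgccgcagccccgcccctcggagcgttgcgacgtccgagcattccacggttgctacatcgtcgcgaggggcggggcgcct

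In p53-null cells 4 of the 10 genes fell (CCNE2, CDC25A, CDK2 and CDK4) and 1 rose (CCND1), with an adjusted p under 0.05 in edgeR's quasi-likelihood test over all 15687 genes. This compares with 28.1% of all tested genes that passed in either direction, 14.8% higher and 13.3% lower. In p53-Y220C cells the 4 genes that fell were the same, and 2 rose (CCND3 and RB1), against a background of 48.5% of all tested genes, 24.9% higher and 23.6% lower. So 5 of 10 genes passed where 28.1% of all genes did, and 6 of 10 where 48.5% did. The second count is near the background and the first lies above it, but no test was run on so small a set. Fits of the 8 libraries with PTPRC reads, or of the 8 without them, hold a single library in 1 arm. Their counts cannot be set beside these shares, and the calls lost or gained there are given gene by gene below. The median log2 fold change of the 10 genes was -0.06 in the p53-null and -0.12 in the p53-Y220C line, beside 0.01 and -0.01 for all tested genes.

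**Figure D1:**
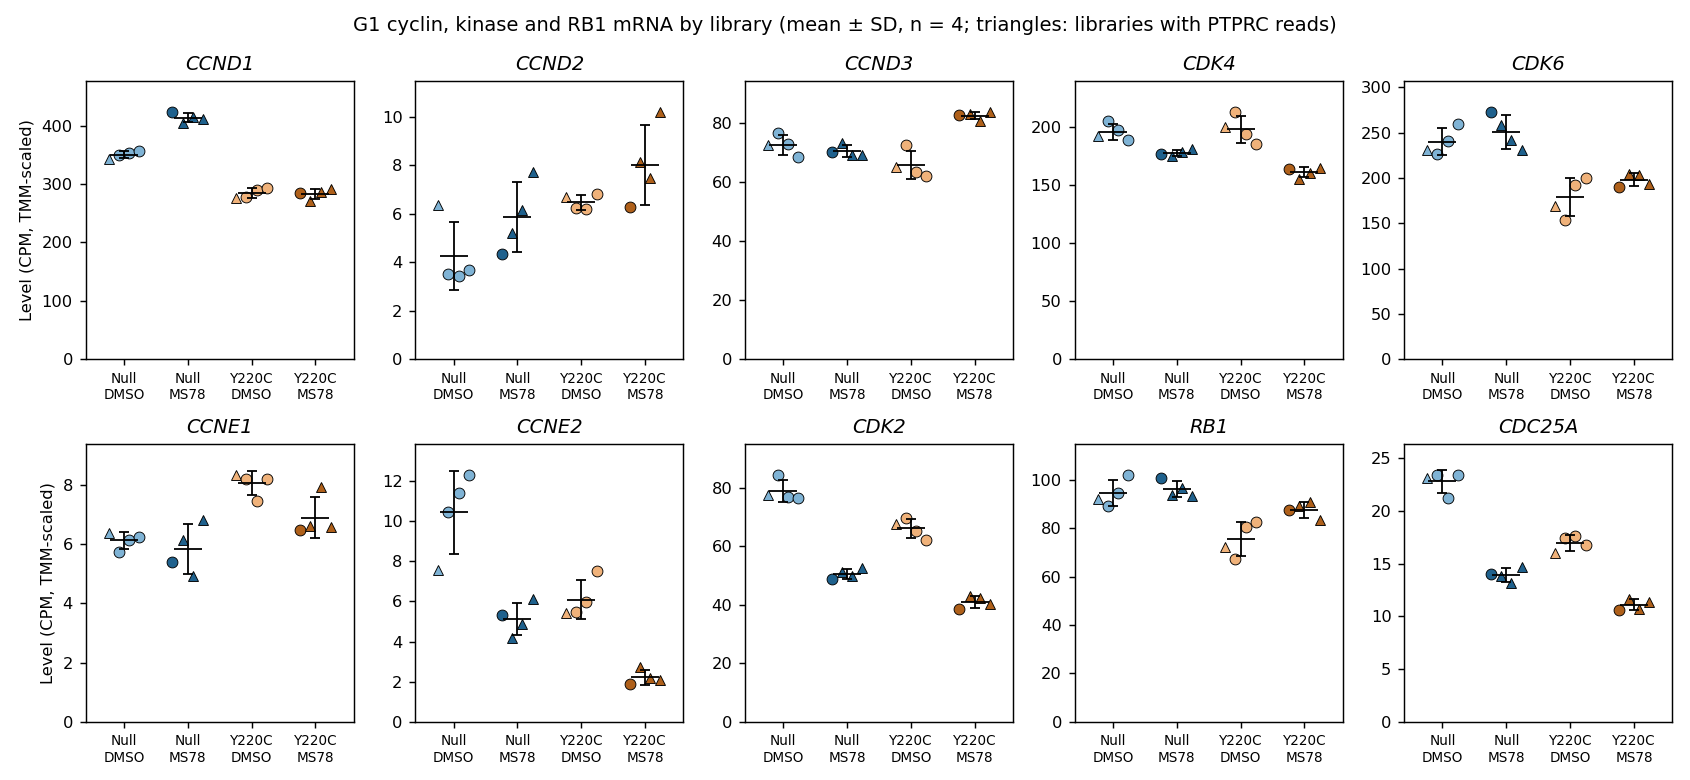
Level of each of the 10 genes in each library, in TMM-scaled CPM on axes that start at 0; bars are the mean ± SD of 4 libraries and triangles are libraries with PTPRC reads. CCNE2, CDK2, CDC25A and CDK4 are lower in all MS78 libraries than in all DMSO libraries of the same line. CCND1 is higher with MS78 in p53-null cells, and CCND3 and, by a narrow margin, RB1 are higher with MS78 in p53-Y220C cells.

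CCND1 encodes cyclin D1, the D-type cyclin with the highest level per transcript length in these cells, and lies on chromosome 11 from 69641087 to 69654474 (GRCh38, plus strand; ENSG00000110092). In Null DMSO its level was 343.2, 349.9, 353.2 and 355.8 CPM in replicates 1 to 4, and in Null MS78 it was 423.5, 404.2, 414.5 and 411.7 CPM. In Y220C DMSO it was 276.1, 278.5, 290.2 and 292.5 CPM, and in Y220C MS78 284.8, 271.6, 286.4 and 291.2 CPM. The groups of p53-null cells did not overlap, whereas those of p53-Y220C cells covered almost the same range. The rise in p53-null cells was 1.18-fold (log2 fold change 0.24, SE 0.03, adjusted p = 6.01e-06). It was 0.24 on the log2 scale among the libraries with PTPRC reads and 0.26 among those without. In p53-Y220C cells the log2 difference was -0.0043 (adjusted p = 0.923), with a 95% interval of 0.952-fold to 1.04-fold. The difference between the lines' responses was -0.24 (SE 0.04, adjusted p = 0.000432).

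CCND3, the gene of cyclin D3 (chromosome 6, 41934933 to 42050357, minus strand; ENSG00000112576), showed the opposite contrast between the lines. Null DMSO libraries held 72.6, 76.8, 72.9 and 68.6 CPM and Null MS78 libraries 70.2, 73.5, 69.2 and 69.4 CPM. Libraries of Y220C DMSO held 65.1, 72.6, 63.5 and 62.1 CPM, and those of Y220C MS78 82.7, 83.0, 80.9 and 83.8 CPM. All 4 Y220C MS78 libraries lay above every other library of the study, and the other 3 groups overlapped their neighbours in the order of means. With MS78 the level rose 1.26-fold in p53-Y220C cells (log2 fold change 0.33, SE 0.05, adjusted p = 5.96e-06), by 0.35 and 0.33 on the log2 scale among the libraries with and without PTPRC reads. In p53-null cells the log2 difference was -0.04, with a 95% interval from -0.14 to 0.05 and an adjusted p of 0.539. The responses differed by 0.37 (SE 0.07, adjusted p = 0.000258).

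CCND2, which encodes cyclin D2 (chromosome 12, 4273772 to 4305350, plus strand; ENSG00000118971), was scarce, at 80 to 201 reads per library. Its level was 6.35, 3.49, 3.45 and 3.69 CPM in Null DMSO, 4.36, 5.22, 6.13 and 7.71 CPM in Null MS78, 6.68, 6.23, 6.20 and 6.80 CPM in Y220C DMSO, and 6.28, 8.13, 7.46 and 10.2 CPM in Y220C MS78. All pairs of neighbouring groups overlapped, and in every group the libraries with PTPRC reads had the higher mean (6.35 against 3.54 CPM in Null DMSO and 8.59 against 6.28 CPM in Y220C MS78, for example). The MS78 differences did not pass the test in p53-null cells (log2 0.45, 95% interval 0.05 to 0.86, adjusted p = 0.0877) or in p53-Y220C cells (log2 0.31, interval -0.08 to 0.69, adjusted p = 0.18). The first of these became 0.72 (adjusted p = 0.00441) without replicate 1 of Null DMSO, 0.57 (adjusted p = 0.0365) without replicate 1 of Null MS78 and -0.03 among the libraries with PTPRC reads alone. Over its 19 alternatives the adjusted p ran from 0.00441 to 0.966.

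The kinase genes that partner the D-type cyclins responded unequally. CDK4 (chromosome 12, 57747727 to 57756013, minus strand; ENSG00000135446) held 191.6, 204.5, 196.8 and 188.2 CPM in Null DMSO and 176.3, 174.9, 177.9 and 180.7 CPM in Null MS78. Its levels were 199.4, 212.7, 194.1 and 184.8 CPM in Y220C DMSO and 163.4, 155.2, 159.8 and 164.5 CPM in Y220C MS78. DMSO and MS78 libraries did not overlap in either line. The fall was 1.10-fold in p53-null cells (log2 fold change -0.14, SE 0.04, adjusted p = 0.0126) and 1.23-fold in p53-Y220C cells (log2 fold change -0.30, SE 0.04, adjusted p = 3.23e-06). The call in p53-null cells was lost with length-scaled counts (adjusted p = 0.0534) and within either set of 8 libraries (adjusted p = 0.157 with and 0.375 without PTPRC reads), over a range of 0.00369 to 0.375 across its alternatives. In p53-Y220C cells it was lost in the libraries without PTPRC reads (log2 fold change -0.27, adjusted p = 0.0527). The difference between the responses was -0.16 (SE 0.06, adjusted p = 0.0405) and missed the threshold in 15 of 26 alternatives (adjusted p 0.0111 to 0.724 over all 26), among them the fit with a replicate block (adjusted p = 0.0562). It was also lost without any 1 of replicates 1, 3 or 4 of Null DMSO, any replicate of Null MS78, replicates 1 or 2 of Y220C DMSO or replicates 2 or 3 of Y220C MS78 (adjusted p from 0.053 to 0.0881).

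CDK4 shares exon bases with TSPAN31, a tetraspanin gene on the opposite strand: 51.9% of the bases of its main transcript lie in TSPAN31 exons. No source used here states whether the counting used strand, so reads of the shared part cannot be told apart. TSPAN31 itself was 36.2 ± 1.12 CPM (mean ± SD, n = 4, as for all such values) in Null DMSO and 41.3 ± 0.299 CPM in Null MS78 (log2 fold change 0.19, SE 0.06, adjusted p = 0.0133), and 31.6 ± 2.36 and 31.3 ± 2.66 CPM in Y220C DMSO and Y220C MS78. The latter difference did not pass (log2 -0.01, adjusted p = 0.861). The part of shared reads in the CDK4 values was not tested.

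CDK6, the other kinase of the D-type cyclins (chromosome 7, 92604921 to 92836594, minus strand; ENSG00000105810), overlapped between treatments in both lines. Its levels were 231.1, 226.6, 241.4 and 260.2 CPM in Null DMSO and 273.0, 258.0, 242.1 and 230.6 CPM in Null MS78. They were 169.0, 154.0, 192.0 and 200.3 CPM in Y220C DMSO and 190.1, 204.2, 203.7 and 193.6 CPM in Y220C MS78. Neither log2 difference passed the test, at 0.07 (95% interval -0.07 to 0.21, adjusted p = 0.523) in p53-null cells and 0.15 (interval 0.00 to 0.29, adjusted p = 0.0852) in p53-Y220C cells. The second passed in 5 of 19 alternatives, among them the libraries with PTPRC reads alone (log2 0.25, adjusted p = 0.00665) and the fits without replicate 3 or replicate 4 of Y220C DMSO (adjusted p = 0.0459 and 0.0157), and its adjusted p reached 0.764 in the libraries without PTPRC reads.

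CCNE2 gave the largest fold change among the 10 genes in both lines. It encodes cyclin E2, an activator of CDK2 at the G1/S boundary and a known E2F target, and lies on chromosome 8 (94879770 to 94896678, minus strand; ENSG00000175305). Its level was 7.55, 10.5, 11.4 and 12.3 CPM in Null DMSO and 5.33, 4.17, 4.89 and 6.11 CPM in Null MS78. In Y220C DMSO the values were 5.44, 5.46, 5.96 and 7.51 CPM, and in Y220C MS78 1.87, 2.73, 2.19 and 2.08 CPM. No MS78 library reached the lowest DMSO library of its line, and Y220C DMSO overlapped with Null MS78. The fall was 2.05-fold in p53-null cells (log2 fold change -1.03, SE 0.15, adjusted p = 1.57e-05) and 2.74-fold in p53-Y220C cells (log2 fold change -1.46, SE 0.18, adjusted p = 8.01e-07). The difference between the lines, -0.42, had a 95% interval from -0.91 to 0.06 and an adjusted p of 0.195, so the data did not separate the responses.

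Few reads lay behind CCNE2, 176 to 314 per library in Null DMSO and 38 to 56 in Y220C MS78. In the p53-null line the library with PTPRC reads among the DMSO controls was also the lowest, and the log2 fold change among libraries with PTPRC reads was -0.60 with an adjusted p of 0.0637 (range over its alternatives 1.78e-12 to 0.0637), against -1.10 (adjusted p = 0.00436) among those without. CCNE2 overlaps INTS8, a gene of the Integrator complex on the opposite strand that was far more abundant at means of 101.6 to 113.1 CPM and whose log2 differences with MS78 were 0.09 (adjusted p = 0.0876) and 0.12 (adjusted p = 0.0183). Of the main CCNE2 transcript, CCNE2-202, 9.77% of the bases lie in INTS8 exons, but of CCNE2-201 55.8% and of CCNE2-205 48.9%. CCNE2-202 went from 7.63 ± 1.44 TPM in Null DMSO to 4.60 ± 0.613 in Null MS78. In the p53-Y220C line it went from 5.84 ± 0.559 with DMSO to 2.36 ± 0.357 with MS78, a drop in both lines (TPM, transcripts per 1 M, is per length). CCNE2-201 held a mean of 15.3% of the CCNE2 TPM in Null DMSO and 9.65% in Null MS78. Its mean share was 3.85% in Y220C DMSO and 0% in Y220C MS78. The part of shared reads in the CCNE2 values was not tested.

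CCNE1, the gene of cyclin E1 (chromosome 19, 29811898 to 29824308, plus strand, ENSG00000105173), did not pass for MS78 in either line. It was not compared with CCNE2 by a test. Its level was 6.39, 5.74, 6.16 and 6.24 CPM in Null DMSO and 5.41, 6.16, 4.93 and 6.84 CPM in Null MS78. It was 8.36, 8.21, 7.47 and 8.22 CPM in Y220C DMSO and 6.48, 6.62, 7.93 and 6.59 CPM in Y220C MS78. Treatments overlapped in both lines, in the p53-Y220C line through replicate 3 of each group only. The log2 differences were -0.08 (95% interval -0.29 to 0.13, adjusted p = 0.635) in p53-null cells and -0.22 (interval -0.43 to -0.02, adjusted p = 0.0681) in p53-Y220C cells. The second was -0.30 with an adjusted p of 0.025 without replicate 3 of Y220C MS78 and -0.28 with an adjusted p of 0.0389 with a term for PTPRC reads, over a range of 0.025 to 0.342 across its alternatives.

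CDK2, the kinase of the E-type cyclins (chromosome 12, 55966769 to 55972784, plus strand; ENSG00000123374), fell by nearly the same factor in both lines. It was 77.6, 84.5, 76.9 and 76.4 CPM in Null DMSO and 48.7, 51.4, 49.9 and 52.5 CPM in Null MS78. Levels of 67.7, 69.8, 65.1 and 62.3 CPM were found in Y220C DMSO and of 38.7, 43.1, 42.5 and 40.1 CPM in Y220C MS78. The 4 groups did not overlap at all. The fall was 1.56-fold in p53-null cells (log2 fold change -0.64, SE 0.05, adjusted p = 9.8e-10) and 1.61-fold in p53-Y220C cells (log2 fold change -0.69, SE 0.05, adjusted p = 2.91e-10). The difference between the responses was -0.05, with a 95% interval from -0.19 to 0.09 (adjusted p = 0.655). In none of 19 alternatives for either line was the call lost. Libraries with PTPRC reads alone gave log2 fold changes of -0.61 in the p53-null and -0.69 in the p53-Y220C line, and libraries without them gave -0.71 and -0.76.

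CDC25A encodes the phosphatase that frees CDK2 of inhibitory phosphate (chromosome 3, 48157146 to 48188402, minus strand; ENSG00000164045), and its promoter is the one printed above with E2F letters. Its level was 23.2, 23.5, 21.2 and 23.4 CPM in Null DMSO and 14.0, 13.8, 13.1 and 14.7 CPM in Null MS78. The values were 15.98, 17.5, 17.7 and 16.8 CPM in Y220C DMSO and 10.7, 11.7, 10.7 and 11.4 CPM in Y220C MS78. As for CDK2, no group overlapped another. The fall was 1.64-fold in p53-null cells (log2 fold change -0.71, SE 0.06, adjusted p = 3.34e-09) and 1.53-fold in p53-Y220C cells (log2 fold change -0.61, SE 0.06, adjusted p = 5.64e-08). The responses differed by 0.10 (95% interval -0.07 to 0.28, adjusted p = 0.389). No alternative for either line lost the call.

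RB1, the gatekeeper that these kinases phosphorylate (chromosome 13, 48303726 to 48599436, plus strand; ENSG00000139687), was expressed in every library. It held 92.3, 89.4, 94.5 and 102.2 CPM in Null DMSO and 100.7, 93.8, 96.8 and 93.5 CPM in Null MS78. The p53-Y220C line had 72.5, 67.3, 80.6 and 82.4 CPM with DMSO and 87.4, 89.1, 90.8 and 83.3 CPM with MS78. The treatments overlapped in p53-null cells and did not in p53-Y220C cells, where the nearest libraries of the groups were 82.4 and 83.3 CPM. RB1 rose 1.16-fold in p53-Y220C cells (log2 fold change 0.21, SE 0.06, adjusted p = 0.00412), a call kept in 18 of 19 alternatives and lost in the set without PTPRC reads (log2 0.19, adjusted p = 0.272). In p53-null cells the log2 difference was 0.02 (95% interval -0.09 to 0.14, adjusted p = 0.8). The difference between these responses, 0.19, had an adjusted p of 0.0875 (0.0307 without replicate 4 of Y220C DMSO, and 0.0307 to 0.784 over its alternatives), so the responses were not shown to differ.

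**Figure D2:**
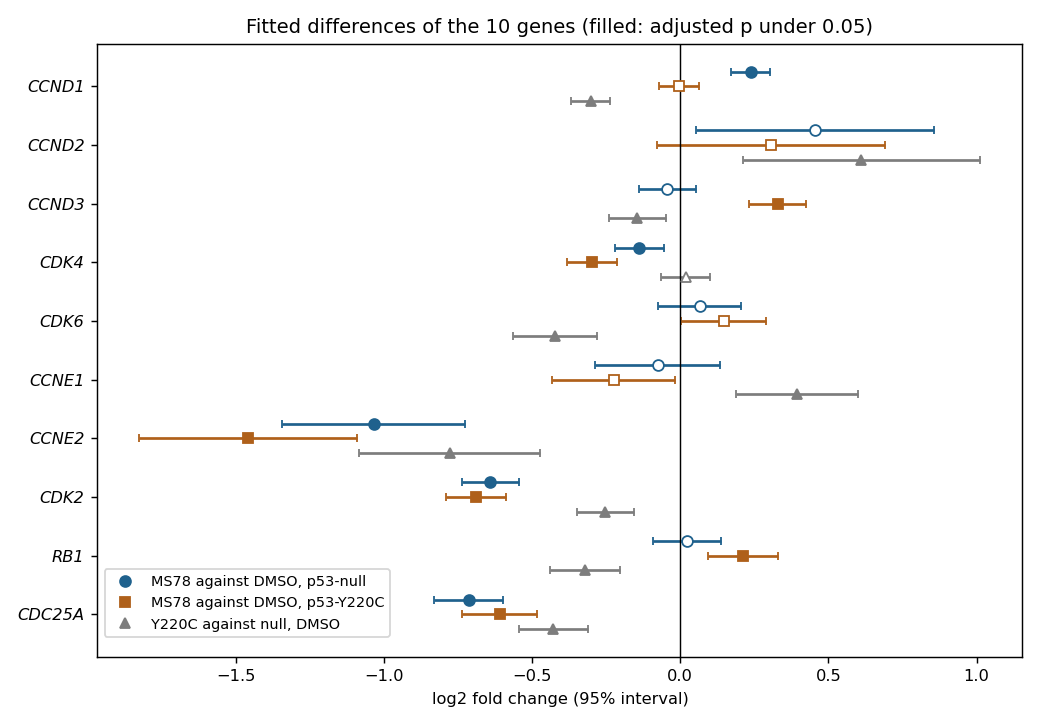
Log2 fold change of each gene with its 95% interval for MS78 against DMSO in each line and for the p53-Y220C against the p53-null line under DMSO; filled symbols passed an adjusted p of 0.05. CCNE2 has the lowest value for MS78 in both lines (-1.03 and -1.46), and the MS78 intervals of CCND1 and CCND3 do not overlap between the lines.

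Set against each other directly, the responses of the lines differed for 3 of the 10 genes: CCND3 was higher, and CCND1 and CDK4 lower, in p53-Y220C relative to p53-null cells. The test of the difference was passed by 26.8% of all tested genes, 14.4% higher and 12.4% lower, so 3 of 10 is close to the background. The median difference of the 10 genes was -0.10, beside -0.02 over all tested genes. The call of CDK4 missed the threshold in 15 of 26 alternatives, as given above. For CCND1 the call was lost within both sets of 8 libraries (log2 difference -0.20, adjusted p = 0.0953 with PTPRC reads; -0.27, adjusted p = 0.147 without). For CCND3 it was lost only in the set without PTPRC reads (0.38, adjusted p = 0.207), which has a single MS78 library per line. Over the 26 alternatives the adjusted p ran from 3.2e-07 to 0.147 for CCND1 and from 1.07e-06 to 0.207 for CCND3.

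Without MS78 the lines already differed in 9 of the 10 genes. Under DMSO 7 were lower in the p53-Y220C line (CCND1, CCND3, CDK6, CCNE2, CDK2, RB1 and CDC25A) and 2 were higher (CCND2 and CCNE1), while CDK4 did not pass (log2 0.02, 95% interval -0.06 to 0.10). The background for this comparison was 50.2% of all tested genes, 24.7% higher and 25.5% lower. The median log2 difference was -0.28 for the 10 genes and 0.00 for all tested genes. These comparisons share their DMSO libraries with the MS78 comparisons above, so the values of the lines are not independent of those.

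CCNE2 was 1.71-fold lower in the p53-Y220C line under DMSO (log2 -0.78, SE 0.15, adjusted p = 0.000166), CDC25A 1.35-fold lower (log2 -0.43, SE 0.06, adjusted p = 2.23e-06) and CDK6 1.34-fold lower (log2 -0.42, SE 0.07, adjusted p = 2.83e-05). RB1 was 1.25-fold lower (adjusted p = 7.34e-05), CCND1 1.23-fold lower (adjusted p = 1.25e-07) and CDK2 1.19-fold lower (adjusted p = 0.000119). None of these 6 overlapped between the lines, but how often that holds over all tested genes was not counted. CCNE1 was 1.31-fold higher without overlap (log2 0.39, SE 0.10, adjusted p = 0.00232). CCND2 was 1.53-fold higher (adjusted p = 0.0119) and CCND3 1.10-fold lower (adjusted p = 0.0135), but both overlapped between the lines. The call of CCND3 was lost without replicate 2 of Null DMSO (adjusted p = 0.058), without replicate 3 or 4 of Y220C DMSO (0.0537 and 0.0617), with length-scaled counts (0.275) and in either set of 8 libraries (0.129 with and 0.162 without PTPRC reads), and that of CCND2 with length-scaled counts (0.349) and in the set with PTPRC reads (0.898). In that set, which holds 1 DMSO library per line, CCNE1, CCNE2 and CDK2 also missed the threshold (adjusted p = 0.252, 0.198 and 0.0659).

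Under MS78 all 10 genes passed between the lines, 3 higher in p53-Y220C cells (CCND2, CCND3 and CCNE1) and 7 lower, against 61.8% of all tested genes, 30.7% higher and 31.2% lower. CCNE2 was 2.30-fold lower (log2 -1.20, SE 0.18, adjusted p = 6.54e-06), CCND1 1.46-fold lower (log2 -0.54, SE 0.03, adjusted p = 8.73e-12) and CCND3 1.17-fold higher (log2 0.23, SE 0.05, adjusted p = 0.000224). CCND3 thus stood lower in the p53-Y220C line with DMSO and higher with MS78, whereas CCND1 was lower in both states. With DMSO, however, CCND3 overlapped between the lines and its call was lost in 6 of 19 alternatives. Several of the calls under MS78 did not hold under every alternative either. With length-scaled counts CDK4 and CDC25A were among the calls lost (adjusted p = 0.0883 and 0.0814). The share of all tested genes called in that fit is not given here. The set without PTPRC reads holds 1 MS78 library of each line. Its log2 differences were 0.25 for CCND3, -0.10 for CDK4, -0.32 for CDK2 and -0.39 for CDC25A. These kept their directions, but 1 library against 1 cannot test them. CCNE1 (log2 0.25, adjusted p = 0.0412) overlapped between the lines and missed the threshold in 11 of 20 alternatives, among them with a replicate block (adjusted p = 0.0571, and 0.0907 among MS78 libraries only), and without replicate 1 or 3 of Null MS78 or replicate 3 of Y220C MS78 (0.108, 0.152 and 0.161). RB1 (log2 -0.13, adjusted p = 0.0432) missed it in 8 of 20 alternatives, among them without replicate 1 or 3 of Null MS78 and without replicate 1, 2 or 4 of Y220C MS78 (adjusted p = 0.118, 0.0771, 0.0751, 0.0589 and 0.12). CCND2 (log2 0.46, adjusted p = 0.0348) missed it in 6, among them without replicate 1 or 2 of Null MS78 and without replicate 2 or 4 of Y220C MS78 (0.123, 0.0931, 0.0635 and 0.153).

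The cyclin and kinase pools are described per length, without a test, by their sums and shares. The D-type cyclins summed to 166.2 ± 1.88 TPM in Null DMSO, 180.2 ± 2.51 in Null MS78, 137.8 ± 3.70 in Y220C DMSO and 144.1 ± 7.34 in Y220C MS78, and the treatments overlapped in the p53-Y220C line. CCND1 held 66.0 ± 1.07% of that sum in Null DMSO and 69.8 ± 0.687% in Null MS78, but 62.5 ± 2.52% in Y220C DMSO and 57.9 ± 1.38% in Y220C MS78. The mean share of CCND3 went from 33.4 ± 0.861% to 29.4 ± 0.812% in p53-null and from 36.6 ± 2.56% to 41.0 ± 1.44% in p53-Y220C cells. CCND2 held 0.574 ± 0.298% to 1.08 ± 0.269%, the smallest part of the pool in every group. Of the summed mRNA of CDK4 and CDK6, CDK4 held 84.0 ± 1.36% to 89.6 ± 1.86%, so it was the main kinase mRNA of the D-type cyclins per length in all 4 groups. That sum was 200.9 ± 6.18 TPM in Null DMSO, 184.4 ± 3.17 in Null MS78, 199.1 ± 2.45 in Y220C DMSO and 163.6 ± 5.56 in Y220C MS78.

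Together the E-type cyclins amounted to 16.4 ± 1.24 TPM in Null DMSO and 10.9 ± 0.555 in Null MS78, and to 14.5 ± 0.875 in Y220C DMSO and 8.52 ± 0.945 in Y220C MS78. CCNE2 held 64.2 ± 4.08% of the sum in Null DMSO, 50.2 ± 4.90% in Null MS78, 48.5 ± 1.17% in Y220C DMSO and 29.7 ± 5.61% in Y220C MS78. CCNE2 was the larger E-type cyclin mRNA in every Null DMSO library (58.2% to 67.0%), and in Null MS78 libraries it held 44.0% to 54.9%. In the p53-Y220C line it was the smaller in every library, both with DMSO (47.0% to 49.8%) and with MS78 (25.2% to 37.6%). With DMSO the margin was narrow and rested on 113 to 169 reads of CCNE2 and 159 to 195 of CCNE1 per library. The part of bases shared with INTS8 in these shares was not tested.

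**Figure D3:**
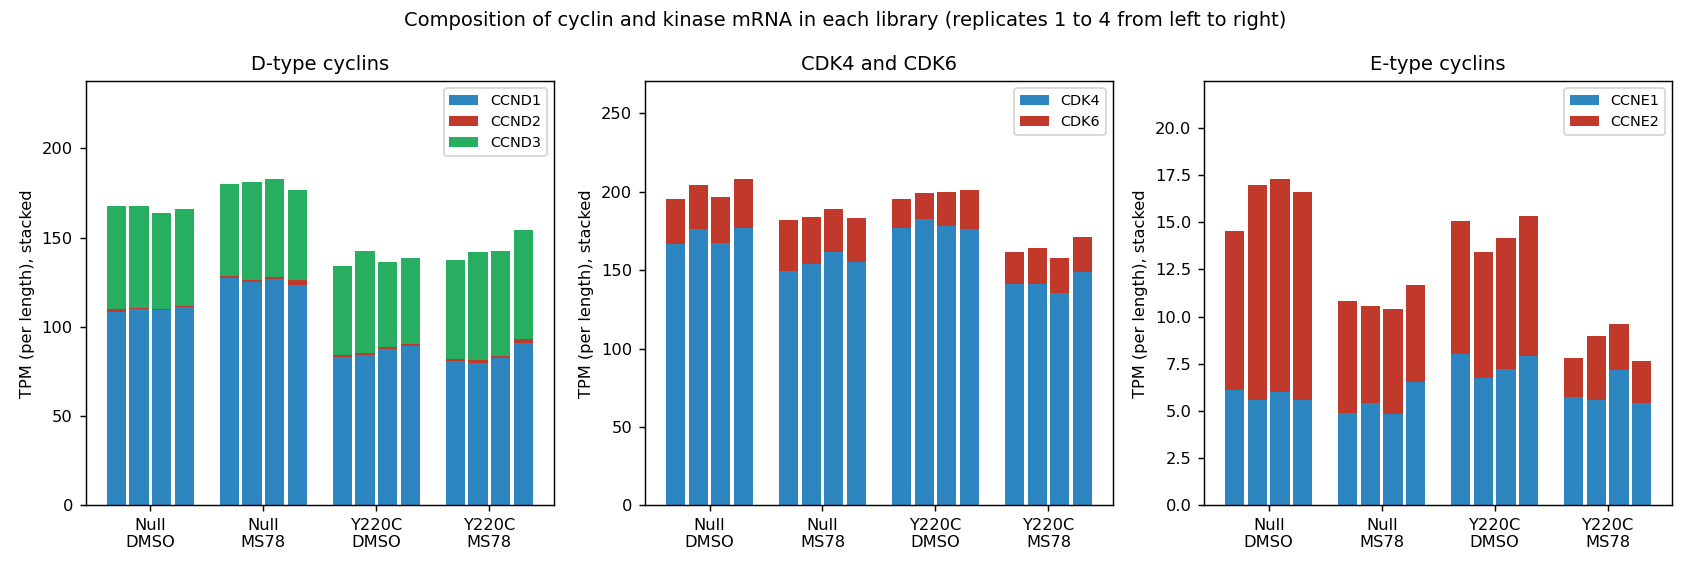
Stacked TPM (per length) of the D-type cyclins, of CDK4 with CDK6 and of the E-type cyclins in each of the 16 libraries, replicates 1 to 4 from left to right within a group. The mean CCNE2 part of the E-type cyclins is 64.2% with DMSO and 50.2% with MS78 in p53-null cells and 48.5% and 29.7% in p53-Y220C cells, and CCND1 and CDK4 make up the larger parts of their pools throughout.

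Most of the 10 genes were read from a single main transcript. CCND1-201 held a median of 99.2% of the TPM of CCND1 over the 16 libraries, RB1-201 91.2%, CDK6-201 89.4%, CDK2-201 88.3%, CCNE2-202 85.9% and CCND3-203 81.8%. CDC25A-201 held 71.3% and went from 7.46 ± 0.113 to 4.62 ± 0.355 TPM in p53-null and from 5.59 ± 0.216 to 3.39 ± 0.256 TPM in p53-Y220C cells. CDK4 was more divided, with 68.3% in the coding transcript CDK4-201 and 21.2% in CDK4-215, which is annotated as a target of nonsense-mediated decay. CCNE1 was spread over 4 coding transcripts with medians of 47.3%, 20.5%, 16.4% and 11.6%, whose SDs within a group reached 19.4 percentage points. These splits rest on how the quantifier divides reads among transcripts that share exons.

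Around the 10 genes, the CDK inhibitors moved in both directions. The counts of this and the following lists stand beside 28.1% of all tested genes called in the p53-null line (14.8% higher, 13.3% lower). In the p53-Y220C line the share was 48.5% (24.9% higher, 23.6% lower). These are shares of the fit of all 16 libraries. Fits of the libraries without PTPRC reads hold 1 library in an arm and called fewer genes in all, so counts from them stand beside no share. Of the 7 CDK inhibitors tested, 3 rose in p53-null cells (CDKN1A, CDKN1C and CDKN2B) and 2 fell (CDKN1B and CDKN2C), with a list median of 0.08. In p53-Y220C cells 2 rose (CDKN1A and CDKN1C) and 3 fell (CDKN2A, CDKN2C and CDKN2D), with a median of -0.05; in the libraries without PTPRC reads 3 of the 7 passed. CDKN1A, the p21 gene and a classical p53 target, went from 50.5 ± 2.69 to 83.6 ± 2.73 CPM in p53-null cells (1.66-fold, adjusted p = 1.35e-10) and from 37.4 ± 1.18 to 125.0 ± 6.73 CPM in p53-Y220C cells (3.34-fold, adjusted p = 4.51e-17), and the responses differed by 1.01 (SE 0.07, adjusted p = 7.07e-10). CDKN1C, the p57 gene, rose 2.48-fold and 2.06-fold from 1.16 ± 0.186 and 2.58 ± 0.309 CPM (adjusted p = 1.97e-06 and 3.88e-06). CDKN2C, which encodes the CDK4 and CDK6 inhibitor p18, fell 1.31-fold and 1.70-fold (adjusted p = 2.61e-06 and 1.86e-10).

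The pocket proteins, E2F and DP factors form, with RB1, the switch that the kinases act on. In p53-null cells 6 of 12 fell (median -0.16), and in p53-Y220C cells 8 fell and 2 rose, E2F3 and E2F6 (median -0.40). Among the activating E2Fs, E2F2 fell 1.98-fold in p53-null cells (adjusted p = 2.83e-09) and 3.54-fold in p53-Y220C cells (adjusted p = 2.49e-12), with a difference of -0.83 (SE 0.12, adjusted p = 4.63e-05; 0.0645 in the libraries without PTPRC reads), and E2F1 fell 1.66-fold and 2.36-fold (adjusted p = 8.8e-07 and 3.46e-09). The atypical repressor E2F8 fell 1.70-fold and 2.75-fold (adjusted p = 4.06e-06 and 1.43e-09). RBL1, the gene of the RB1 relative p107, fell 1.66-fold in p53-null cells, from 39.2 ± 1.92 to 23.5 ± 1.38 CPM (adjusted p = 1.63e-08), and 1.72-fold in p53-Y220C cells (adjusted p = 1.4e-08).

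All 18 genes in a list of G1/S genes driven by E2F fell in both lines, with medians of -0.68 in the p53-null and -1.09 in the p53-Y220C line. MCM2, MCM4 and CDC6, which license replication origins, fell 1.81-fold, 1.77-fold and 1.81-fold in p53-null cells (adjusted p = 1.03e-11, 2.88e-13 and 1.13e-10). In p53-Y220C cells MCM5, another subunit of that helicase, and TK1 and RRM2, enzymes of nucleotide supply, fell 2.86-fold, 2.70-fold and 2.69-fold (adjusted p = 3.54e-15, 4.42e-13 and 1.99e-16). The response was further down in p53-Y220C cells for 13 of the 18 and less far down for CDC6 (difference 0.41, SE 0.08, adjusted p = 0.000651). Over all tested genes 12.4% were called lower and 14.4% higher in this test of the difference. In the libraries without PTPRC reads the difference passed for 3 of the 18, and the call of CDC6 was lost in either set (adjusted p = 0.0833 with and 0.251 without) and with length-scaled counts (0.0669). For CCNE2, CDK2 and CDC25A the difference between the lines did not pass (adjusted p = 0.195, 0.655 and 0.389).

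Among 14 other interphase cyclins, kinases and activators, 2 rose and 5 fell in p53-null cells (median -0.02), and 5 rose and 7 fell in p53-Y220C cells (median -0.22). In p53-null cells 2 of the 14 passed in the libraries without PTPRC reads and 4 with length-scaled counts. CCNA2, the cyclin that takes over CDK2 in S phase, fell 1.65-fold and 1.92-fold (adjusted p = 3.07e-10 and 2.61e-12), and CDC25C, a mitotic relative of CDC25A, 1.63-fold and 1.99-fold (adjusted p = 3.12e-09 and 1.04e-11). WEE1, whose kinase opposes the CDC25 phosphatases, fell 1.41-fold in p53-null cells (adjusted p = 1.24e-05; 0.21 in the libraries without PTPRC reads) and 1.34-fold in p53-Y220C cells (adjusted p = 4.29e-05). CDC25B fell 1.16-fold in p53-null cells (adjusted p = 0.000151; 0.0797 in the libraries without PTPRC reads) and 1.66-fold in p53-Y220C cells (adjusted p = 1.42e-12). Of 14 genes for the turnover of G1 cyclins and CDK inhibitors, 2 rose and 3 fell in p53-null cells (median 0.04), and 7 rose and 3 fell in p53-Y220C cells (median 0.14). In the libraries without PTPRC reads 3 of the 14 passed in either line. SKP2, the F-box protein that targets p27, fell 1.32-fold and 1.48-fold (adjusted p = 1.33e-06 and 9.22e-09), its cofactor CKS1B 1.41-fold and 1.42-fold (adjusted p = 1.51e-07 and 6.11e-08), and GSK3B, a kinase that marks cyclin D1 for degradation, rose 1.31-fold in p53-null cells (adjusted p = 1.93e-06) and 1.26-fold in p53-Y220C cells (adjusted p = 8.08e-06; 0.114 in the libraries without PTPRC reads). FBXO4, an F-box gene, fell 1.31-fold in p53-Y220C cells (adjusted p = 0.000164; 0.0558 with length-scaled counts and 0.145 in the libraries without PTPRC reads).

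**Figure D4:**
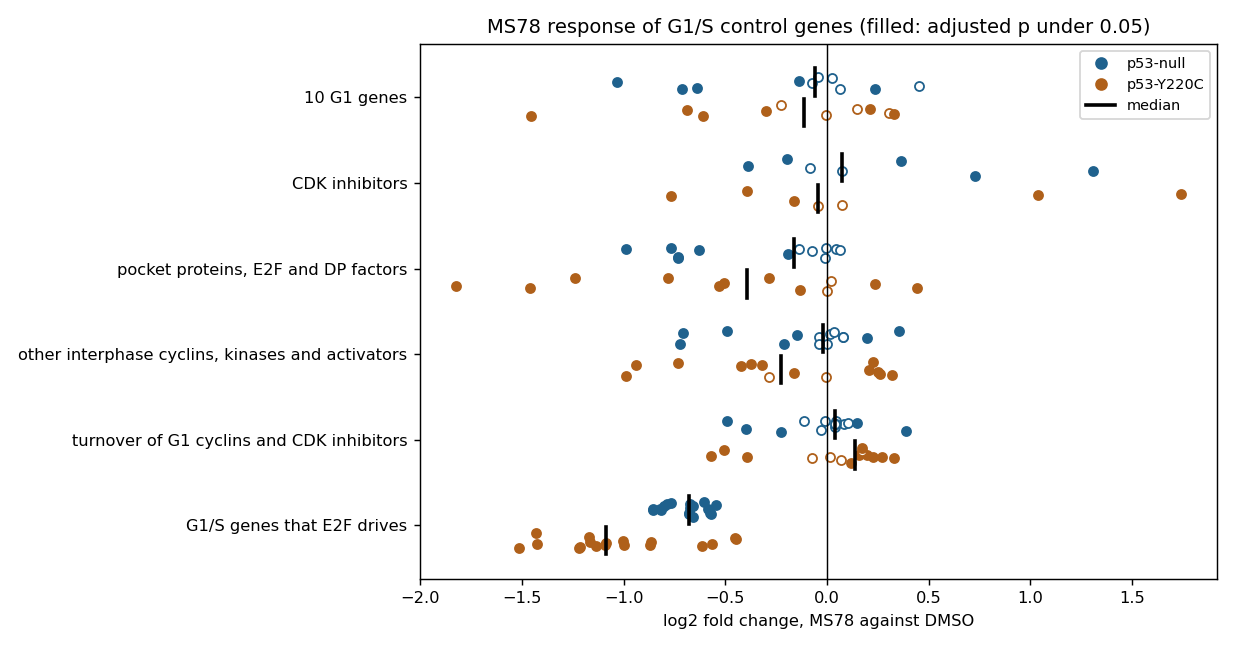
Log2 fold change with MS78 of each gene of the 10 and of 5 lists of the G1/S pathway in both lines; filled points passed an adjusted p of 0.05 and black bars are list medians. All 18 E2F-driven genes are below 0 in both lines, whereas CDK inhibitors lie on both sides.

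The genes whose pattern over the 16 libraries was most like each member were found among 10982 tested genes with a mean of at least 5 CPM, by the smallest root mean square difference in centred log2 CPM. CDC25A was nearest to MCM6 (0.07), FEN1 (0.07) and TRIP13 (0.08), and CDK2 to ARL6IP1 (0.07), MCM6 (0.07) and FANCG (0.07). MCM6 was thus among the nearest 3 for both, going from 171.9 ± 7.67 CPM in Null DMSO to 113.2 ± 1.35 CPM in Null MS78, and from 135.8 ± 2.56 to 88.7 ± 2.18 CPM in the p53-Y220C line. CCNE2 was nearest to MCM5, GINS2 and RRM2, at the wider distances of 0.25, 0.25 and 0.26.

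Of the other genes, CCND1 lay close to FZD1 (0.03), CAPN1 (0.06) and GTF2I (0.06; uncertain, since it has near-identical copies), and CCND3 to ISG20L2 (0.05), COPZ1 (0.05) and RNF114 (0.06). CDK4 was nearest to ATP5F1B (0.04), LAP3 (0.04) and ACAA2 (0.05), CDK6 to UHMK1 (0.06), WWC2 (0.07) and MBOAT2 (0.07), and RB1 to MAN1A2 (0.05), MKLN1 (0.05) and AHCTF1 (0.06). For the scarce genes the nearest patterns were looser: CCNE1 lay 0.10 to 0.11 from TAF9, RMND5B and LTBP1, and CCND2 0.24 to 0.25 from SFXN3, PLEKHO2 and FCGBP. All libraries are shared in these measures, and they carry no test.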

How the data were processed

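Poly(A) RNA was measured in 16 libraries of NCI-H1299 cells, grouped by the genotype and treatment of the labels into 4 groups of 4. The deposited tables list 197653 transcripts each. Per the file headers they hold an estimated count of reads per transcript, deposited without normalization. A TPM value, which the authors' quantifier scales to effective length, and both lengths stand beside it. The submitters' processing notes name FastQC 0.11.8 and the build hg38. The quantifier's version, its annotation and its strand setting were not given in the sources used here.

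Transcripts were matched to GENCODE 29 (193348, 97.82%), and estimated counts were summed into 56865 genes and rounded. In edgeR 4.0.16 (R 4.3.3), 15687 genes passed filterByExpr and were fitted in 1 quasi-likelihood model with TMM scaling and 12 residual degrees of freedom. P-values were adjusted by Benjamini-Hochberg over all tested genes (threshold 0.05), and every adjusted p printed for a gene is of this test unless an alternative is named. Standard errors were derived from the log2 fold change and its F statistic. The script was tested on simulated counts.

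Depth was 20.3 M to 27.7 M estimated reads per library, and the share of reads in unmatched transcripts, which were left out, was 0.278% to 0.325%. Intervals cover the spread between libraries only. Replicates of a group differed beyond counting noise, with a chi-square per gene of 2.52 to 11.3, so none was counted as a repeat.

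Replicate numbers of the labels were checked as pairs by correlating deviations from group means. Same-numbered libraries of DMSO and MS78 correlated at -0.50 to -0.04, and those of the lines under DMSO at -0.06 to 0.45, so the numbers were not taken as pairs there. The check cannot exclude pairs. PTPRC reads lie in replicate 1 with DMSO but in replicates 2, 3 and 4 with MS78, and in the same replicate numbers of both lines. The part of these reads in the correlations was not tested. The lines under MS78 correlated at 0.15 to 0.53 in all 4 pairs, so for that comparison the block is given beside the results it changes.

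Alternatives were DESeq2 1.42.0, limma 3.58.1 (voom), RLE scaling, other filters, length-scaled counts, a term for PTPRC reads, other sets of libraries, the replicate block and leaving out each library. The block among MS78 libraries only was chosen after seeing the data. The 10 genes, the 5 pathway lists, the markers and the tests were chosen with earlier results of these data known. Named genes are the 10 members, the 3 genes most like each, and up to 3 genes per list with the largest log2 fold change past 0.05 and at least 1 CPM in each MS78 comparison. The check of the labels by 1 further gene is not reported here. The lists' other genes are named only to spell out counts.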

Additional observations from a re-analysis of the deposited data

Results flagged for a closer look

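In 5 of 40 groups of 4 libraries (10 genes in 4 groups) the highest or lowest library stood apart from the other 3 beyond the 95% critical value of Dixon's test, which chance exceeds in about 1 of 20 groups. CCND2 was 6.349 CPM in replicate 1 of Null DMSO, which has PTPRC reads, and 3.45 to 3.69 CPM in the other 3. CDK2 was 84.52 CPM in replicate 2 of Null DMSO against 76.4 to 77.6 CPM, and CDC25A was 21.2 CPM in replicate 3 of Null DMSO against 23.2 to 23.5 CPM. CCNE1 was 7.466 CPM in replicate 3 of Y220C DMSO against 8.21 to 8.36 CPM, and 7.927 CPM in replicate 3 of Y220C MS78 against 6.48 to 6.62 CPM. The CCNE1 values are the 2 libraries through which the treatments overlap in p53-Y220C cells. All of these libraries were kept.

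The response to MS78 differed between the lines by the test of the difference itself for 3 genes, with log2 differences (p53-Y220C minus p53-null) of -0.2425 for CCND1, 0.3718 for CCND3 and -0.161 for CDK4. The adjusted p was 0.000432, 0.000258 and 0.0405. The call missed the threshold in 2 of 26 alternatives for CCND1, in 1 for CCND3 and in 15 for CDK4.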

How the results depend on the processing

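Of 1030 values recomputed for the 10 genes under the alternatives, 940 kept their direction and their side of the threshold, 66 lost and 12 gained a call, and 12 changed sign, none of them a called value. The numbers of the 10 genes called were 5, 6, 3, 9 and 10 for MS78 in p53-null cells, MS78 in p53-Y220C cells, the difference of the responses, and the lines under DMSO and under MS78. Leaving out each library gave 5 to 6, 6 to 7, 2 to 4, 8 to 9 and 7 to 10. With the replicate block they were 5, 6, 2, 9 and 9; the calls lost were those of CDK4 for the difference and CCNE1 for the lines under MS78, and the block changed no other call of the 10 genes. With the 8 libraries with PTPRC reads only, the counts were 3 for MS78 in p53-null cells, 1 for the difference and 4 for the lines under DMSO. With the 8 libraries without them, edgeR called 0 for the difference (2 at an unadjusted p under 0.05; no other tool was run there) and 3 for the lines under MS78. The fit for MS78 in p53-null cells holds 1 library in one arm, and those for the difference hold 1 library in 2 of the 4 groups. Both fits given here for the lines set 1 library against 1. A single library is assumed to vary like the others, and all these fits hold fewer libraries. Length-scaled counts gave 5 for the lines under MS78, and the cause was not tested. For that fit, the replicate block and the fits that leave out a library, the numbers of all genes called are not given here. A change particular to the 10 genes cannot be told from a general one there.

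Sign changes, all in differences that did not pass, were CCND2 with PTPRC reads only (-0.0254 in p53-null cells; 0.3947 for the difference) and without them (-0.0267 in p53-Y220C cells), CDK6 without them (-0.1018 for the difference), and CCND1 in p53-Y220C cells with a term for PTPRC reads (0.0149) or with PTPRC reads only (0.0423). On leaving out a library, RB1 in p53-null cells ran from -0.0076 to 0.059, CCND1 in p53-Y220C cells from -0.0205 to 0.0163, the difference for CCND2 from -0.408 to 0.004 and CDK4 between the lines under DMSO from -0.0181 to 0.0537. Over all genes, 4402 were called for MS78 in p53-null cells, 2863 with length-scaled counts and 2346 and 1070 with and without PTPRC reads; for MS78 in p53-Y220C cells 7611, and 3490 without; for the difference 4197, 2748 with length-scaled counts, and 1870 and 411; for the lines under DMSO 7875, and 3817 with; for the lines under MS78 9699, and 4184 without. For 45 values of named list genes, 867 of 876 recomputed values kept their direction and side of the threshold and 9 lost the call; the list counts that moved are given with the lists. CCND2, CCNE1 and CCNE2 rested on few reads, 38 to 314 per library.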
